A study of Mus musculus with 6 samples.

Results

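Regulators of G-protein signaling (RGS proteins) switch off signals from receptors coupled to heterotrimeric G proteins. A ligand-bound receptor loads the G alpha subunit with GTP, which frees it and the beta-gamma pair to act on adenylyl cyclases, phospholipase C beta and other effectors, and an RGS protein speeds the hydrolysis of that GTP. In cells of the osteoclast lineage such receptors respond to chemokines, to extracellular calcium and to calcitonin, and *Rgs10*, *Rgs12* and *Rgs18* in particular have been studied there. The 10 RGS genes described here were chosen by name, with earlier results of these data known: *Rgs1*, *Rgs2*, *Rgs3*, *Rgs4*, *Rgs16* and *Rgs18* of the R4 subfamily of small proteins, *Rgs10*, *Rgs12* and *Rgs14* of the R12 subfamily, and *Rgs19* of the RZ subfamily. They are 10 of 37074 gene names on the arrays and carry 22 probes. Of these genes 9 were tested, among 20645 in all, and *Rgs4* was not.

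The study asked which genes and pathways *Ano1*, a calcium-activated chloride channel, regulates during osteoclast formation. Osteoclasts came from 3 *Ano1fl/fl* mice, with loxP sites around an intact *Ano1* gene, and from 3 *Ctsk-Cre;Ano1fl/fl* littermates, in which Cre made from the cathepsin K gene is meant to remove *Ano1* in osteoclasts. Both groups carry the floxed alleles and both received RANKL, the cytokine that drives osteoclast formation, for 5 days. No group had Cre without the floxed alleles. The general culture method starts from marrow of mice 6 to 8 weeks old, with 1 day in M-CSF, a survival factor for the precursors, at 10 ng/ml, followed by RANKL at 50 ng/ml and M-CSF at 30 ng/ml. Each RNA was hybridised to its own Agilent array in a single colour, giving 6 arrays with 3 per group.

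The unit throughout is the log2 of the processed spot signal after quantile normalization across the 6 arrays, and a difference is the mean of the *Ctsk-Cre;Ano1fl/fl* arrays minus the mean of the *Ano1fl/fl* arrays. A gene with several probes is represented by the probe of highest mean. It was tested where all 3 arrays of a group had that probe well above background, as flagged by the scanner software, and it passed at an adjusted p under 0.05 in limma over all 20645 genes. The only probe of *Ano1* was below background on all 6 arrays (processed signal 3.22 to 3.91), so it could not check the labels and every direction rests on them. Genes marking osteoclasts were present on both sides and all 10 of them had risen on the arrays labelled *Ctsk-Cre;Ano1fl/fl*, where 23.4% of all genes were called higher. Their median difference was 3.02, with summed linear signals of 146416 to 158913 on the *Ano1fl/fl* arrays and of 498923 to 562107 on the others. One of them, *Calcr*, was above background on 2 of 3 *Ano1fl/fl* arrays and entered the test only through the *Ctsk-Cre;Ano1fl/fl* arrays. The study describes the opposite direction for osteoclast marker genes in osteoclasts of these genotypes, and the cause of this difference was not tested. An array had 33480 to 34951 of its 59305 transcript spots well above background, and no spot was saturated. Signals are levels in whole cultures, in which fewer cells of a type and less RNA per cell cannot be told apart.

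The sequences of the probes behind the main results are given first, since each probe reads only a short stretch of 1 or a few transcripts. They are the first 30 of 60 bases as the array files write them, 5′ to 3′, for the members with the larger changes and for the brightest and the rising probe of *Rgs3*.
Rgs16 A_55_P2807418: gttcctttatcagcagtgtatgtgatcact
Rgs2 A_55_P2109857: atcctcggttcttggagtccgaattctacc
Rgs18 A_52_P541161: tgcttgaacgatgaagatggcatactttca
Rgs14 A_51_P389957: ggaggtgggcctagttccttggcataagca
Rgs3 A_55_P2027102: gccctctggccacacagaaatgagtgctga
Rgs3 A_55_P2027117: ggagctggaattatacagaccttctgagaa
In the mm9 coordinates of the array files the *Rgs16* probe lies at chr1:155592497-155592556 on the plus strand, at position 2233 of transcript NM_011267. The *Rgs2* probe lies at chr1:145848830-145848889 on the minus strand, at position 587 of NM_009061, and the *Rgs18* probe at chr1:146600137-146600196 on the minus strand, at position 1633 of NM_022881. The *Rgs14* probe lies at chr13:55485762-55485821 on the plus strand, at position 2069 of NM_016758. All 18 member probes that carry a RefSeq accession were matched to a gene of the same symbol in the RefSeq table. The files do not say whether a position is in a coding exon or a UTR.

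*Rgs16* rose and *Rgs2*, *Rgs18*, *Rgs14* and *Rgs12* fell on the arrays labelled *Ctsk-Cre;Ano1fl/fl*. *Rgs16* was 12.4-fold higher, *Rgs2* 3.65-fold lower and *Rgs18* 2.29-fold lower, and *Rgs14* and *Rgs12* fell by less than 2-fold. Of the 9 members tested, 1 was higher, where 23.4% of all genes tested were called higher, and 4 were lower, where 29.0% were called lower. The groups did not overlap in 7 of the 9 members, and in 64.0% of all genes. The median difference of the 9 was -0.29, against -0.06 over all genes. At more than 2-fold, 1 member was higher and 2 were lower, with 9.88% and 7.19% of all genes called in those directions.

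**Figure D1:**
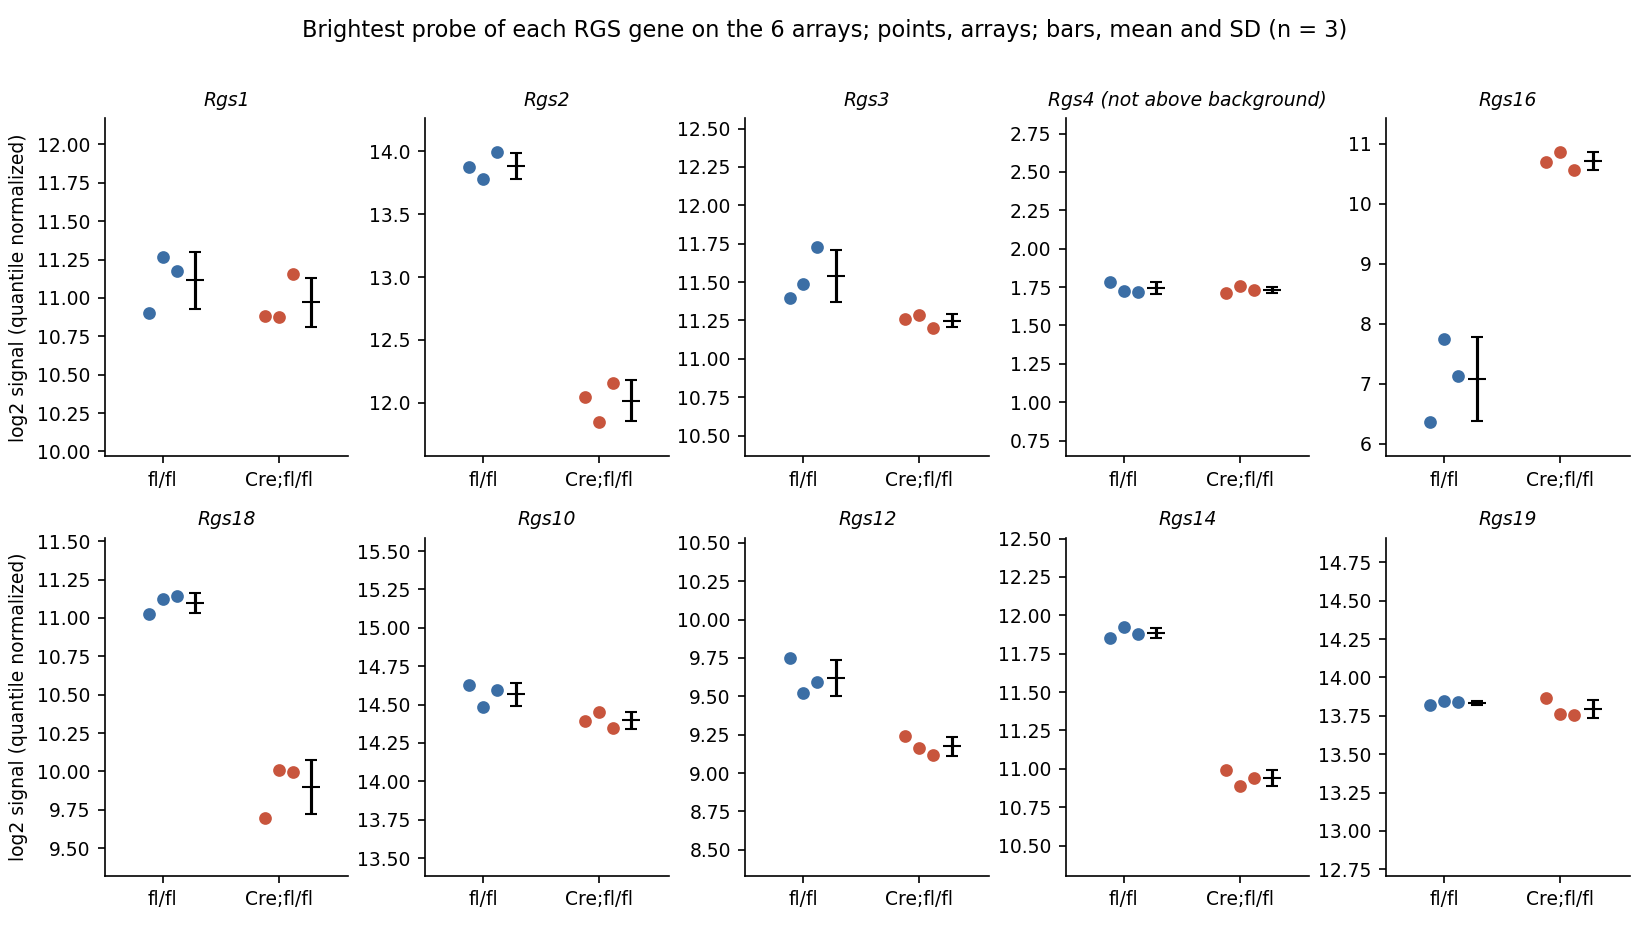
Log2 quantile-normalized signal (vertical axis, its own range in each panel) of the brightest probe of each of the 10 RGS genes, with 1 point per array, 3 of *Ano1fl/fl* (fl/fl, blue) and 3 of *Ctsk-Cre;Ano1fl/fl* (Cre;fl/fl, red), and a bar for the mean and SD. *Rgs16* stands between 6.35 and 7.75 in the first group and between 10.56 and 10.86 in the second, *Rgs2*, *Rgs18*, *Rgs14* and *Rgs12* stand lower in the second, and *Rgs4* is not above background on any array.

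*Rgs16* was the only member to rise as a gene. Its protein acts on G alpha of the Gi and Gq classes, and its transcript is known as inducible in leukocytes. Its log2 signal was 6.353, 7.750 and 7.129 on the *Ano1fl/fl* arrays, against 10.704, 10.864 and 10.561 on the *Ctsk-Cre;Ano1fl/fl* arrays. The lowest array of the second group was above the highest of the first, and the 3 *Ano1fl/fl* arrays differed among themselves more than any other member's, with means and SDs of 7.08 ± 0.70 and 10.71 ± 0.15 (SD, n = 3). The difference was 3.63 (SE 0.34; limma adjusted p = 0.00037; 95% interval 2.81 to 4.45). Of all 20645 genes, 379 had a larger rise. All 6 arrays had its single probe well above background.

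*Rgs2*, an R4 protein that prefers Gq, had the largest fall. The log2 signal of its brighter probe was 13.88, 13.78 and 13.99 on the *Ano1fl/fl* arrays, against 12.05, 11.84 and 12.16 on the *Ctsk-Cre;Ano1fl/fl* arrays. The groups were far apart for their spread, and the difference was -1.87 (SE 0.11; limma adjusted p = 6.5e-05; 95% interval -2.13 to -1.61). A second probe, A_52_P92568 at chr1:145849832-145849891, reads the transcript ENSMUST00000134817. It gave 5.56, 5.74 and 5.74 on the *Ano1fl/fl* arrays, against 3.20, 4.15 and 4.10 on the others, where it was below background on all 3. With the lowest signal that counted as above background on those arrays in its place, it was at least 3.18-fold lower. It entered the test only through the *Ano1fl/fl* arrays, so a fall was the only change it could show.

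*Rgs18*, an R4 gene best known from megakaryocytes and platelets, stood at 11.023, 11.123 and 11.146 on the *Ano1fl/fl* arrays, against 9.696, 10.007 and 9.996 on the *Ctsk-Cre;Ano1fl/fl* arrays. The groups did not overlap, and the difference was -1.20 (SE 0.11; limma adjusted p = 0.00030). Megakaryocyte markers moved with it: 6 of 7 fell, where 29.0% of all genes were called lower, and 0 rose, with a median difference of -1.27. All 7 were well above background on every array, and their summed linear signal ran from 123935 to 141616 on the *Ano1fl/fl* arrays and, lower, from 53487 to 62273 on the *Ctsk-Cre;Ano1fl/fl* arrays. Mast cell and basophil markers fell as well, 5 of 5 beside the same 29.0%, with sums of 3161 to 4221 and 452 to 1680 in the same order of groups. Among these 5, *Ms4a2* was above background on only 1 *Ctsk-Cre;Ano1fl/fl* array and entered the test only through the *Ano1fl/fl* arrays. The part of these cells in the fall of *Rgs18* was not tested.

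*Rgs14* of the R12 subfamily binds Ras family proteins and holds inactive G alpha subunits as well as carrying an RGS domain. Its log2 signal was 11.85, 11.92 and 11.88 on the *Ano1fl/fl* arrays, against 10.99, 10.88 and 10.94 on the *Ctsk-Cre;Ano1fl/fl* arrays. Arrays within a group were close to each other, and the fall of 1.93-fold was a difference of -0.95 (SE 0.07; limma adjusted p = 0.00012).

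*Rgs12*, the large R12 protein with a PDZ domain, fell less. Its brightest probe, A_55_P2002122 at chr5:35376032-35376091, gave 9.75, 9.52 and 9.59 on the *Ano1fl/fl* arrays, against 9.24, 9.17 and 9.12 on the *Ctsk-Cre;Ano1fl/fl* arrays. The groups were apart, with a difference of -0.45 (SE 0.08; limma adjusted p = 0.0059), or 1.36-fold lower. A_55_P2905246, at chr5:35309330-35309389 and position 1987 of the same transcript NM_173402, was lower too, with a difference of -0.83 (SE 0.24; limma adjusted p = 0.0197 over 31848 probes). A_55_P2002129 was above background on 1 array only and A_55_P2717555 on none. When all 4 probes were averaged, the difference was -0.19 and did not pass (limma adjusted p = 0.162).

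The probes of *Rgs3* moved in opposite directions. *Rgs3* is an R4 gene with several transcripts that encode short and long proteins. Its brightest probe, A_55_P2027102 at chr4:62363993-62364052 and position 3676 of NM_134257, gave 11.40, 11.49 and 11.73 on the *Ano1fl/fl* arrays, against 11.26, 11.28 and 11.20 on the *Ctsk-Cre;Ano1fl/fl* arrays. The groups were apart by a small margin, and the difference of -0.29 did not pass (SE 0.10; limma adjusted p = 0.0512; 95% interval -0.54 to -0.05). A_55_P2493624, on the same transcript, differed by -0.34 (limma adjusted p = 0.0421 over all probes). A_52_P261868, also on that transcript, overlapped between groups (-0.04).

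The probe A_55_P2027117 of *Rgs3* rose. It lies at chr4:62320777-62320836, upstream of the others on the plus strand, at position 4600 of another transcript, NM_019492. Its log2 signal was 4.332, 5.036 and 4.935 on the *Ano1fl/fl* arrays, against 6.997, 6.318 and 7.238 on the *Ctsk-Cre;Ano1fl/fl* arrays. All 6 arrays were well above background, every *Ctsk-Cre;Ano1fl/fl* array was higher than every *Ano1fl/fl* array, and the difference was 2.08 (SE 0.32; limma adjusted p = 0.00155 over all probes). Relative to A_55_P2027102 on the same array, it differed by 2.37 and the groups were apart. That comparison of single values was among 5 probe pairs of *Rgs3*, *Rgs10* and *Rgs12* and gave an exact two-sided permutation p = 0.1, the smallest that 3 arrays against 3 can give, and 0.167 after Benjamini-Hochberg adjustment over the 5. The groups were apart, with the same permutation p, for A_52_P261868 of *Rgs3* (0.25) and A_66_P106795 of *Rgs10* (0.08) as well. They overlapped for A_55_P2493624 of *Rgs3* and A_55_P2905246 of *Rgs12*. The change of *Rgs3* as a whole hence depended on the probe: the mean of all its probes differed by 0.29, with limma adjusted p = 0.0762.

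**Figure D2:**
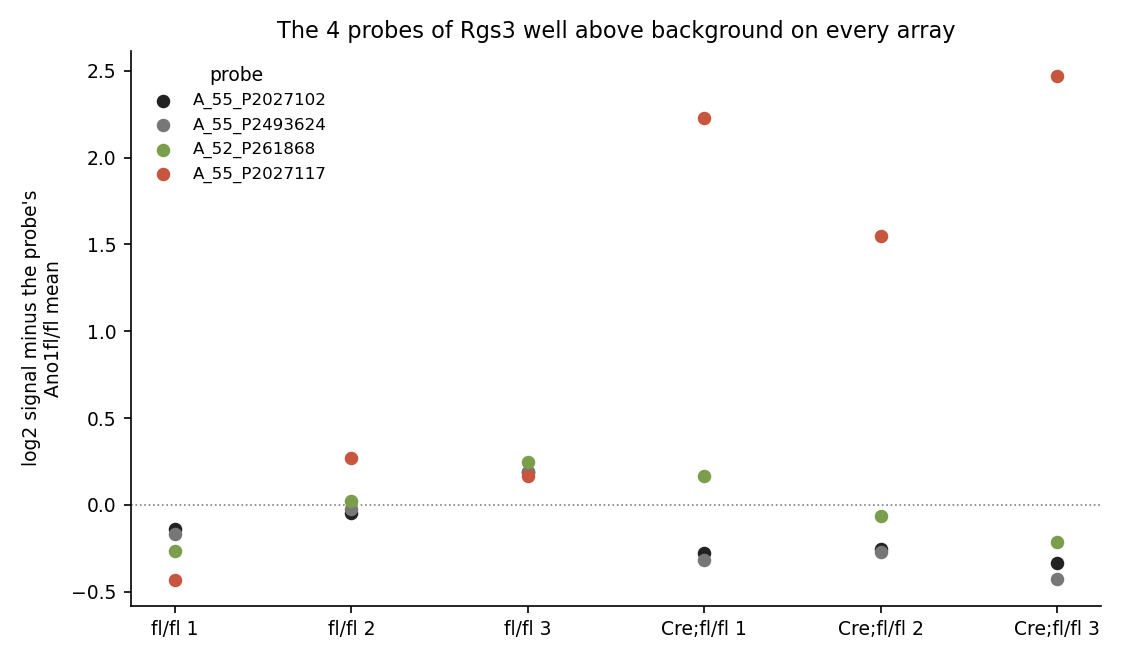
Log2 signal of the 4 *Rgs3* probes above background on every array, each minus its own mean over the *Ano1fl/fl* arrays (vertical axis), on the 3 *Ano1fl/fl* arrays (fl/fl) and the 3 *Ctsk-Cre;Ano1fl/fl* arrays (Cre;fl/fl), with 1 point per probe and array. A_55_P2027117 (red) is above the other probes on all 3 *Ctsk-Cre;Ano1fl/fl* arrays, with a difference of 2.08, while A_55_P2027102 (black) differs by -0.29.

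*Rgs10*, *Rgs1* and *Rgs19* did not pass. *Rgs10*, a small R12 protein of macrophages, microglia and osteoclasts, gave 14.63, 14.48 and 14.59 on the *Ano1fl/fl* arrays, against 14.39, 14.45 and 14.35 on the *Ctsk-Cre;Ano1fl/fl* arrays. The groups were apart, but the difference of -0.17 had an adjusted p of 0.0928 (limma; SE 0.07, 95% interval -0.35 to 0.0056). Its other probes differed by -0.09 and -0.20. *Rgs1*, an R4 regulator of chemokine receptor signals, gave 10.90, 11.26 and 11.17 on the *Ano1fl/fl* arrays, against 10.88, 10.88 and 11.16 on the others. The groups overlapped, with a difference of -0.14 (SE 0.13; limma adjusted p = 0.389; 95% interval -0.45 to 0.17).

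*Rgs19* binds the Gi class. Its brightest probe stood between 13.82 and 13.85 on the *Ano1fl/fl* arrays, and between 13.75 and 13.86 on the *Ctsk-Cre;Ano1fl/fl* arrays, so the groups overlapped. It differed by -0.04 (SE 0.07; limma adjusted p = 0.621; 95% interval -0.20 to 0.12), and its other probes differed by -0.04 and 0.07. *Rgs4*, known from neurons and smooth muscle, had 1 probe, below background on all 6 arrays, and no fold is given for it.

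**Figure D3:**
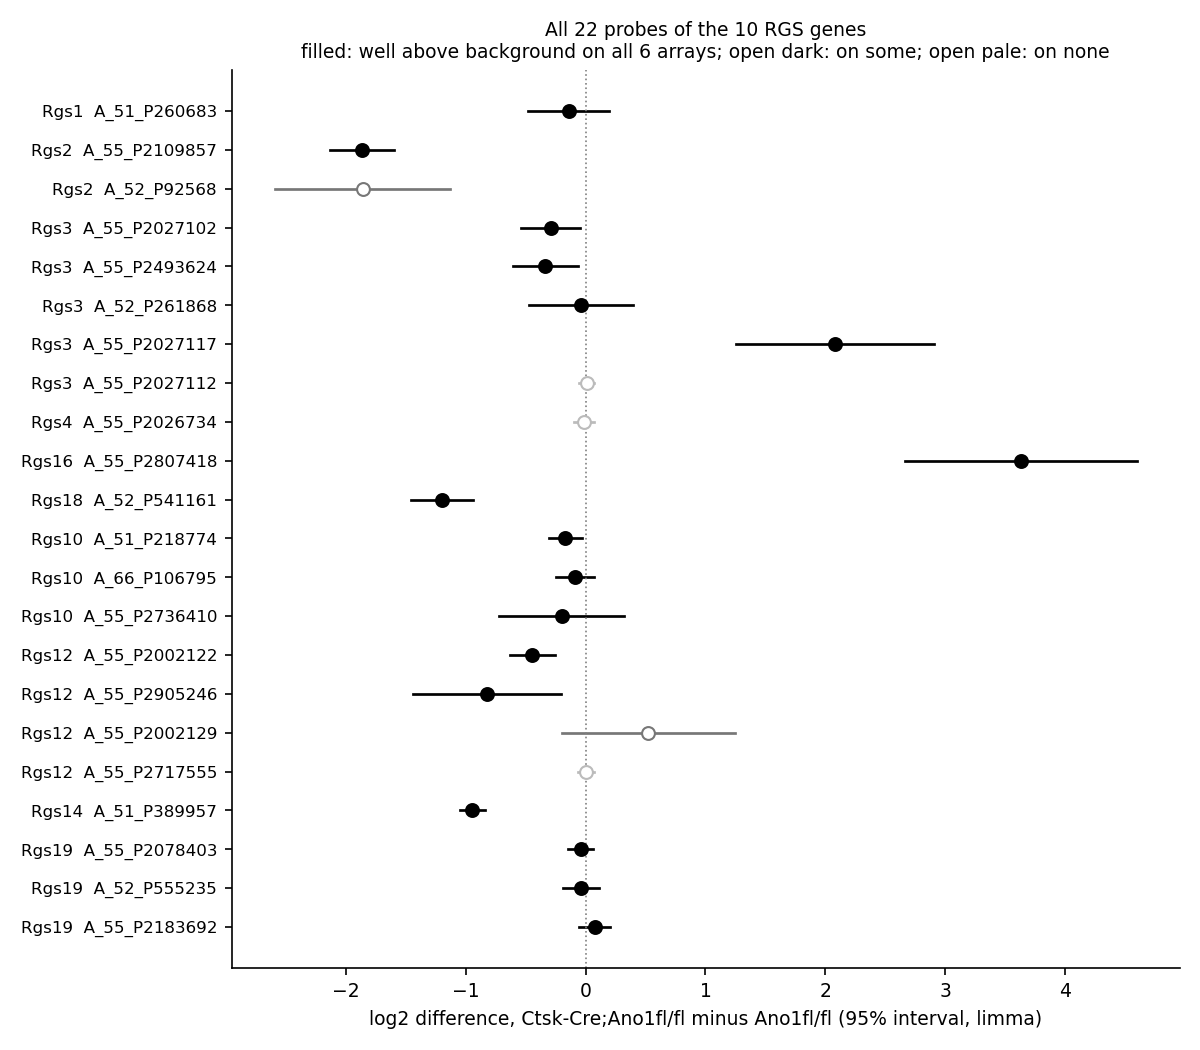
Log2 difference (horizontal axis) and its 95% interval in limma's fit of all probes for the 22 probes of the 10 RGS genes, 1 line per probe, filled where all 6 arrays had the probe well above background, open and dark where on some, open and pale where on none. The *Rgs16* probe lies at 3.63 and the brighter *Rgs2* probe at -1.87, the second *Rgs2* probe (open) is a fitted value whose bound is 3.18-fold lower, and the *Rgs3* probes fall on both sides of 0.

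Of the 22 probes, 17 were above background on each of the 6 arrays and 3 on none. Of the 18 tested, 2 were higher, where 21.8% of 31848 probes were called higher, and 7 were lower, the second *Rgs2* probe among them, where 30.6% were called lower. The 2 higher probes were those of *Rgs16* and the NM_019492 probe of *Rgs3*.

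The R4 genes *Rgs2*, *Rgs1* and *Rgs18* lie in a cluster on chromosome 1. In the gene order of the RefSeq table, *Rgs2* is followed by *Rgs13*, *Rgs1*, *Rgs21* and *Rgs18* with no other protein-coding gene between them, and *Rgs16* lies next to *Rgs8* and *Rgs4* next to *Rgs5* on the same chromosome. Within the cluster *Rgs2* and *Rgs18*, at its ends, fell (log2 differences -1.87 and -1.20), *Rgs1* differed by -0.14, *Rgs21* by -0.01, and *Rgs13* was below background on all 6 arrays. The genes of the cluster thus did not all pass. *Rgs8* was too dim to be tested beside *Rgs16*.

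RefSeq promoter entries (GRCm38.p6, 250 bases before a start) matched 7 of the 10 members by symbol. *Rgs2* and *Rgs16*, with the largest fall and rise among the members, both had one. The *Rgs2* window at chr1:144004150-144004399 on the minus strand has 72.4% GC and 30 CG pairs, and the *Rgs16* window at chr1:153740103-153740352 on the plus strand has 66.4% GC and 17 CG pairs. Over all 32851 promoters the medians were 52.4% GC and 6 CG pairs, with at least 17 pairs in 23.5% and at least 30 in 5.94%. On both strands neither window held TGACGTCA, the cyclic AMP response element, which 1.55% of all windows hold, nor the AP-1 letters TGANTCA (6.75%), nor GGAAA, the core that NFAT proteins bind (55.6%), nor the NF-kappa B motif (7.25%). Among the other members, TGANTCA was found in the second start of *Rgs12* and GGAAA in the second start of *Rgs3* and in 2 starts of *Rgs19*. A match is only these letters, and their absence says nothing of the factors.

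The other RGS family genes were mostly dim. Of 15 listed, 14 were on the arrays with 33 probes, 21 of them below background on every array, and 4 genes were tested. *Rgs20* of the RZ subfamily gave 11.97, 11.97 and 11.78 on the *Ano1fl/fl* arrays, against 12.59, 12.55 and 12.52 on the others, and the difference of 0.65 passed (SE 0.08; limma adjusted p = 0.00114). The last 30 bases of its probe A_55_P2102155 are shown because 29 of them, in capitals, are a run of TC repeats.
Rgs20 A_55_P2102155: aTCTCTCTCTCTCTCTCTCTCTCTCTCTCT
Both other probes of *Rgs20* were below background on every array. *Rgs7bp*, a membrane anchor for RGS proteins of the R7 subfamily, was dim, above background on 2 of 3 *Ctsk-Cre;Ano1fl/fl* arrays. It entered the test only through the *Ano1fl/fl* arrays and differed by -0.63 (SE 0.16, limma adjusted p = 0.0182). The call was lost under 4 alternatives, among them normexp, with a difference of -0.14. With the series matrix the difference was -0.31 and the call was kept, while with the filter on all 6 arrays the gene was not tested. *Rgs11* (-0.15, limma adjusted p = 0.643) and *Rgs21* (-0.01, limma adjusted p = 0.977) did not pass.

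The rest of the G-protein cycle was read from 5 lists with 64 genes on the arrays. Of these 54 were tested, 17 rose, 17 fell and 20 did not pass, so that 63.0% passed, where 52.4% of all genes did. By direction, 23.4% of all genes were called higher and 29.0% lower. Among the G alpha subunits, the direct partners of RGS proteins, 4 of 13 rose and 4 fell, with a median difference of -0.04. *Gnai1*, of the Gi class, was below background on all *Ano1fl/fl* arrays and was at least 3.52-fold higher (log2 5.87, 5.86 and 5.63 on the *Ctsk-Cre;Ano1fl/fl* arrays). It entered the test only through the *Ctsk-Cre;Ano1fl/fl* arrays, so a rise was the only change it could show. *Gna13* rose by 0.60 and *Gnas*, the Gs subunit, by 0.51. *Gnaz*, above background on 1 of 3 *Ctsk-Cre;Ano1fl/fl* arrays, fell (-1.43), as did *Gna12* (-0.64) and *Gna14*, of the Gq class (-0.37). *Gnaz* entered the test only through the *Ano1fl/fl* arrays, and its -1.43 is a fitted value that includes arrays below background.

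Of the beta and gamma subunits 7 of 13 rose and 1 fell, with a median of 0.26, where 23.4% of all genes were called higher and 29.0% lower. *Gng8* was below background on all *Ano1fl/fl* arrays and was at least 1.89-fold higher, *Gngt2* rose by 0.69 and *Gng12* by 0.55, and *Gng2* fell (-0.96). *Gng8* entered the test only through the *Ctsk-Cre;Ano1fl/fl* arrays, so a rise was the only change it could show. Among effectors 3 of 13 rose and 4 fell (median -0.17), beside the same shares of all genes. The adenylyl cyclase gene *Adcy3* rose by 2.74 (SE 0.17; limma adjusted p = 7.89e-05), from 4.77, 4.57 and 5.09 on the *Ano1fl/fl* arrays to 7.66, 7.67 and 7.32 on the *Ctsk-Cre;Ano1fl/fl* arrays. Another cyclase, *Adcy4*, above background on 1 *Ano1fl/fl* array, rose by 1.45 and the exchange factor gene *Arhgef12* by 1.08. *Adcy4* entered the test only through the *Ctsk-Cre;Ano1fl/fl* arrays, and its 1.45 is a fitted value that includes arrays below background. *Adcy5* was below background on all *Ctsk-Cre;Ano1fl/fl* arrays and at least 1.69-fold lower, and *Adcy7* (-0.67) and the phospholipase gene *Plcb3* (-0.60) fell. Since *Adcy5* entered the test only through the *Ano1fl/fl* arrays, it could show only a fall. *Adcy3* and *Adcy7*, above background on all 6 arrays, thus moved in opposite directions.

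Receptor kinases and arrestins, which silence the receptor rather than the G protein, had 1 of 7 higher and 3 lower (median -0.25). Over all genes 23.4% were called higher and 29.0% lower. The kinase gene *Adrbk2* rose by 0.54, while *Grk4* differed by -0.82 and the arrestin genes *Arrb1* and *Arrb2* by -0.77 and -0.34, all past the threshold. Of the other G alpha regulators, 2 of 8 rose and 5 fell (median -0.31), beside the same shares of all genes. *Ccdc88a* and *Ric8*, whose proteins promote nucleotide exchange on G alpha, rose by 0.61 and 0.52, and *Gpsm2* (-0.74) and *Gpsm3* (-0.44), which bind inactive G alpha, fell. *Ric8b*, a relative of *Ric8* that also promotes exchange and is named here after its value was seen, fell (-0.29, limma adjusted p = 0.015). *Gprasp1*, a receptor-sorting protein gene, fell too (-0.55).

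**Figure D4:**
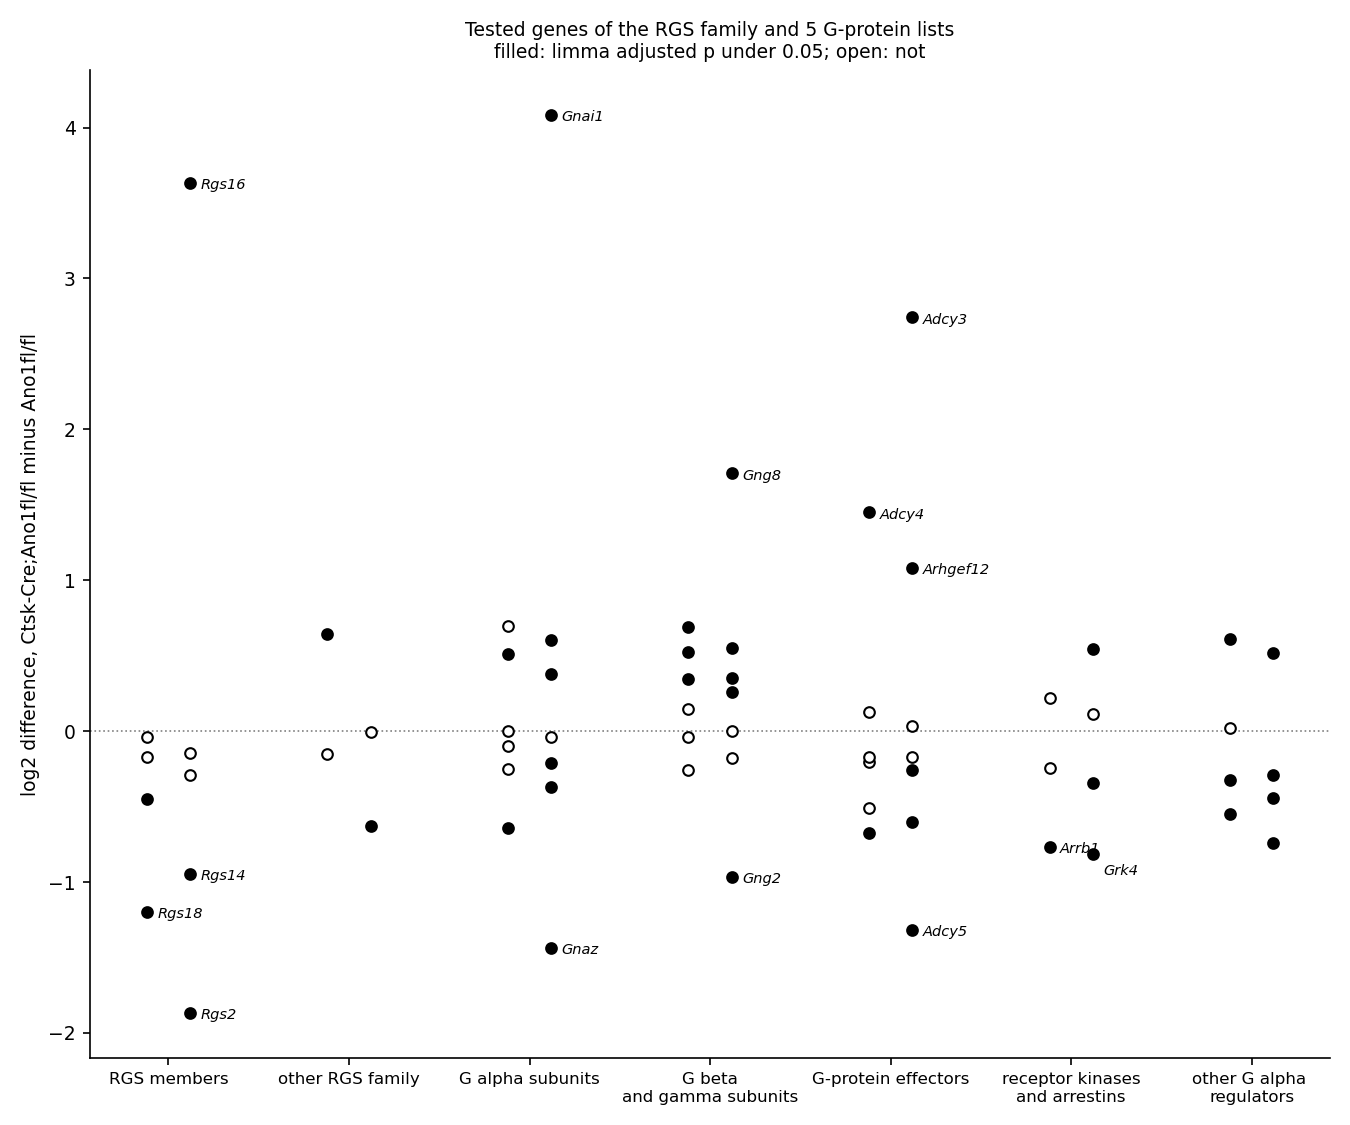
Log2 difference (vertical axis) of every tested gene in the RGS family and the 5 G-protein lists (columns), 1 point per gene, filled where limma's adjusted p is under 0.05. *Rgs16* at 3.63, *Gnai1* and *Adcy3* at 2.74 stand highest, and *Rgs2* at -1.87 lowest; the value of *Gnai1* is a fitted one, and its bound is 3.52-fold.

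Marker lists of other cells are given beside the members, each to be read against the 52.4% of all genes that passed in either direction. Of all genes, 23.4% were called higher and 29.0% lower. Stromal markers rose in 10 of 12, with 1 lower and a median difference of 3.90. Their summed signal ran from 2169 to 3228 on the *Ano1fl/fl* arrays, where *Lum* and *Pdgfra* were below background on all 3, and from 55865 to 94157 on the *Ctsk-Cre;Ano1fl/fl* arrays. *Lum*, *Pdgfra* and *Postn*, the last above background on 1 *Ano1fl/fl* array, entered the test only through the *Ctsk-Cre;Ano1fl/fl* arrays. Pericyte and smooth muscle markers, from cells in which *Rgs5* is known, rose in 4 of 7 and fell in 1 (median 0.45, sums 59884 to 64664 and 87903 to 105561), and *Rgs5* itself was below background on all 6 arrays. B cell markers rose in 6 of 7 and fell in 1 (median 2.79, sums 7615 to 9143 and 29332 to 57049). The part of any of these cells in the rise of *Rgs16* was not tested. Nor was that of osteoclasts, whose markers rose in 10 of 10 (median 3.02).

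Macrophage markers passed in 44.4% of those tested, with 1 of 9 higher, 3 lower and a median of -0.04 (sums 521201 to 542971 and 543426 to 598757). Neutrophil markers fell in 6 of 9 and rose in 1 (median -0.60, sums 317177 to 334492 and 212275 to 264571), endothelial markers fell in 2 of 5 and rose in 1 (median -0.39), and T and NK cell markers rose in 3 of 7 and fell in 2 (median -0.41). Dendritic cell markers passed in 50% of those tested, with 1 of 4 higher and 1 lower (median -0.26). The part of any of these cells in the falls of *Rgs2*, *Rgs12* and *Rgs14* was not tested.

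The calls for *Rgs16*, *Rgs2*, *Rgs18* and *Rgs14* were the same in direction and side of the threshold under all 16 alternatives of processing, filter, test or left-out array. The difference of *Rgs16* lay between 3.11 and 3.97 and that of *Rgs2* between -1.96 and -1.78. *Rgs18* ranged from -1.25 to -1.10 and *Rgs14* from -1.01 to -0.92. *Rgs3* and *Rgs10*, short of the threshold as processed here, passed as lower under 6 and 4 of the alternatives.

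**Figure D5:**
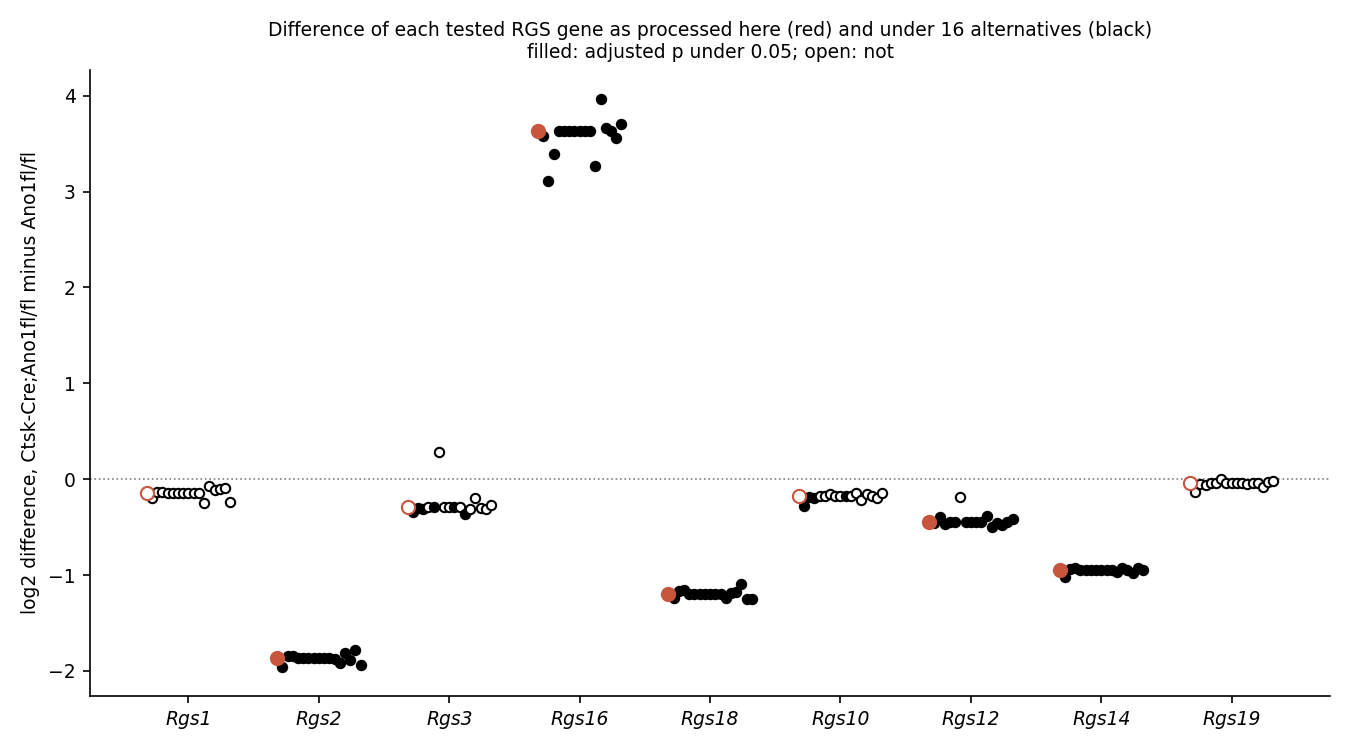
Log2 difference (vertical axis) of the 9 tested RGS genes as processed here (red) and under 16 alternatives (black), filled where the adjusted p is under 0.05. *Rgs16* stays between 3.11 and 3.97 and *Rgs2* between -1.96 and -1.78, while *Rgs3* lies above 0 in 1 alternative, the mean of all probes, at 0.29.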

How the data were processed

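RNA of osteoclasts from 3 *Ano1fl/fl* and 3 *Ctsk-Cre;Ano1fl/fl* mice was read on 6 Agilent arrays. The deposited files hold linear spot intensities from Agilent Feature Extraction 10.7.1.1, whose processed signal is background-subtracted and not normalized between arrays; near background it holds a surrogate value. The series matrix that the authors deposited holds the same intensities as the median spot signal. Control spots and outlier spots were left out. Log2 signals were quantile normalized, as the methods name, with spots of a probe averaged, and groups were compared with limma 3.58.1 in R 4.3.3 with Benjamini-Hochberg adjustment over all genes. Of the spots of a probe, a share of 0.5 had to be well above background for the probe to count so. Figures were drawn with matplotlib 3.10.9 under Python 3.11.15. The script was tested on simulated data. Sequences are from the array files, and gene order and promoter composition from RefSeq (GRCm38.p6). Named genes were all members, every tested other RGS gene, and per list the 3 largest rises and falls past the threshold with groups apart. The members and lists were chosen with earlier results of these data known. Alternatives changed the scaling, background, filter, probe rule, test, replicate block and single arrays. The number of arrays limits the precision.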

Additional observations from a re-analysis of the deposited data

How the results depend on the processing

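Across 16 alternatives the number of members called higher was 1 throughout and the number called lower ran from 3 to 6 (4 to 5 with 1 array left out). *Rgs12* lost its call with the mean of all probes (-0.19, limma adjusted p = 0.162), and *Rgs3* turned to 0.29 there, as averaging brings in its dim and rising probes. *Rgs3* passed with 75th percentile scaling (-0.35), normexp, the series matrix, the filter on all 6 arrays, limma's trend and robust options, and without *Ano1fl/fl* replicate 1 (-0.36). *Rgs10* passed with 75th percentile scaling (-0.27), normexp, the series matrix and the trend and robust options. Among other RGS family genes the number higher was 2 with no filter on dim probes and 0 with the mean of all probes, where *Rgs20* stood at 0.19 (limma adjusted p = 0.548). The number lower, which is *Rgs7bp* alone, was 0 with normexp, with no filter, with the filter on all 6 arrays and with the methods' t-test, and ran from 0 to 1 with 1 array left out, 0 without *Ano1fl/fl* replicate 2. Values near 0 changed sign: *Rgs11* was 0.044 without *Ano1fl/fl* replicate 2 (-0.41 to 0.044 with 1 array left out), and *Rgs21* was 0.028 with 75th percentile scaling, 0.016 with normexp and -0.18 to 0.13 with 1 array left out, above 0 without *Ano1fl/fl* replicate 2 (0.12), *Ctsk-Cre;Ano1fl/fl* replicate 1 (0.026) or *Ctsk-Cre;Ano1fl/fl* replicate 3 (0.13). The cause was not tested. With 1 array left out, *Rgs1* ran from -0.25 to -0.067 and *Rgs19* from -0.076 to -0.021, and *Rgs19* was -0.14 with 75th percentile scaling, none past the threshold. The G-protein lists had 14 to 18 higher and 13 to 20 lower genes.

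The labels do not say whether replicate numbers pair the arrays. Deviations of arrays with the same number correlated at -0.08 to 0.0044 across genes, and 0 of 6 arrays correlated best with their own number. With 3 arrays per group, these correlations cannot decide whether arrays of the same number belong together. With the replicate block 9279 genes passed, against 10826 without it, and no member's call changed (1 higher, 4 lower). Dim probes limit the account: *Rgs4* was below background on all 6 arrays and 10 of the 14 other RGS genes on the arrays were too dim to be tested, so their change is not known.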
